A study of Mus musculus with 12 samples.

Results

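Hox genes encode homeodomain transcription factors that sit side by side in 4 clusters, Hoxa, Hoxb, Hoxc and Hoxd, and are numbered by paralogue group from 1 to 13 along each cluster. They are best known for giving position along the body axis in the embryo. In blood, members of the Hoxa and Hoxb clusters are active in stem and early progenitor cells and are shut down as cells mature, and their proteins bind DNA together with partners of the Pbx and Meis families. Their RNA was measured here in mouse spleen. All genes of the count table whose symbol is Hox, a cluster letter and a number were taken, which gave 30 genes with a row out of 32121 genes. The annotation lists 39 such genes, and the 9 without a row (Hoxa13, Hoxc10, Hoxc11, Hoxc12, Hoxc13, Hoxd1, Hoxd11, Hoxd12 and Hoxd13) were not analysed here.

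Of the 6 spleens, 3 came from mice, called SB animals 1 to 3, that carried VEC-Cre, the transposon onc2 and the transposase of Sleeping Beauty (SB). VEC-Cre is a Cre recombinase under a vascular endothelial cadherin promoter, which is active in endothelium and also in the embryonic endothelium that gives rise to blood, and the SB transposase moves the mutagenic transposon to new places in the genome. The other 3 mice were wild-type controls, and every animal is given as strain C57BL/6, with no age stated. Each spleen gave 2 pieces that were sequenced separately, 12 libraries in all, the stated aim being to assess by their RNA whether a spleen is clonal throughout.

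The libraries held 14320833 to 22031026 counts, of which Hox genes took 16.5 to 38.0 CPM (counts scaled to a common library size) in SB libraries and 19.5 to 23.0 CPM in control libraries, scaled by the plain totals. With 4790 Hox counts over all 12 libraries, most members are measured by few reads. Xist, the X-inactivation RNA, was at 2271 CPM in SB animal 1, 1002 CPM in SB animal 2 and 1.67 CPM in SB animal 3, against 1.49 to 2.44 CPM in control animals. Ddx3y, on the Y chromosome, was at 0.256, 0.182 and 96.1 CPM in SB animals 1 to 3, against 60.7 to 76.0 CPM in controls. Sex-linked RNA was thus unequal between the groups and also within the SB group. Among SB animals, sex and animal cannot be told apart, and the part of sex in the Hox values was not tested. All other CPM use library sizes scaled by the TMM method. Values per animal come from the summed counts of both pieces.

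The clusters lie on chromosome 6 (Hoxa, chr6:52155590-52260880), chromosome 11 (Hoxb, chr11:96194316-96368256), chromosome 15 (Hoxc, chr15:102921103-103036852) and chromosome 2 (Hoxd, chr2:74668310-74765142), in GRCm38. The promoter windows below, the 250 bases before the RefSeq start in build GRCm38.p6, belong to the 5 Hox genes that differed among SB animals and have a window. They are shown with each CG dinucleotide in capitals, because Kmt2a, the MLL histone methyltransferase that keeps Hox genes active, binds unmethylated CG through its CXXC domain.
Hoxa9 (chr6:52227371-52227620, minus strand): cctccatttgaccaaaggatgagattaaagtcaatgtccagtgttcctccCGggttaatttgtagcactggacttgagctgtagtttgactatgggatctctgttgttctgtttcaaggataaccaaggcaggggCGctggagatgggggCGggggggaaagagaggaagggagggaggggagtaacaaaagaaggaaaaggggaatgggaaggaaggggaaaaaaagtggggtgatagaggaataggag
Hoxb4 (chr11:96318017-96318266, plus strand): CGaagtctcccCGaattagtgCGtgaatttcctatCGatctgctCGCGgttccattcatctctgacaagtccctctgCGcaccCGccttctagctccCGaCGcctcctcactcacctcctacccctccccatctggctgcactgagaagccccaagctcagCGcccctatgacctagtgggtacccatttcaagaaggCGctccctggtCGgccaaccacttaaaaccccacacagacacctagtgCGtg
Hoxb8 (chr11:96281655-96281904, plus strand): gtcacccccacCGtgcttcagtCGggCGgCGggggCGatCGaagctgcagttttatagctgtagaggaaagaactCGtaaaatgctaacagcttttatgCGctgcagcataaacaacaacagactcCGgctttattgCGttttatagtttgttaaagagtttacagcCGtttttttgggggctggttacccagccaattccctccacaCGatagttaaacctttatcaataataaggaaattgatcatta
Hoxc4 (chr15:103034145-103034394, plus strand): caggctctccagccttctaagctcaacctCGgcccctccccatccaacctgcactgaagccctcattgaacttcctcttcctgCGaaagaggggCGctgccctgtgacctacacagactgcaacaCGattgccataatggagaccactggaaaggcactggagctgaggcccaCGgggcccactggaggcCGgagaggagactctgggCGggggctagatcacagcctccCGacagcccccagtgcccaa
Hoxd8 (chr2:74704365-74704614, plus strand): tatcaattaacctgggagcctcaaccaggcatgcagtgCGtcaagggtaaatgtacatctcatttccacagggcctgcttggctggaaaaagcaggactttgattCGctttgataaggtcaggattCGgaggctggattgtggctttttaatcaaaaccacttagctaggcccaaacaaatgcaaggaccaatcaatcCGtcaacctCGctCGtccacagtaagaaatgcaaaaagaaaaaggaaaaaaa
Hoxa9 held 3 CG dinucleotides and Hoxd8 held 6, against 14 in Hoxb4, 12 in Hoxb8 and 8 in Hoxc4. The median was 12.5 over the 24 windows of 22 Hox genes and 6 over all 32851 windows, and 92.1% of all windows held at least 1. The Pbx-Hox motif TGATNNAT, searched on both strands, was found once in the Hoxb8 window and not in the other 4 windows printed, and 7.68% of all windows held it. The Meis motif TGACAG was in none of the 5 windows, and 15.9% of all windows held it.

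Hox RNA in these spleens came mainly from the Hoxb and Hoxa clusters. The Hoxb cluster held 54.9% of all Hox counts, the Hoxa cluster 39.9%, the Hoxd cluster 3.1% and the Hoxc cluster 2.1%. These shares pool all libraries. In SB animals 1 to 3 the Hoxb share was 47.7, 48.7 and 60.8%, and the Hoxa share 49.6, 48.0 and 34.0%. Control animals had 52.5 to 59.2% for Hoxb and 34.4 to 42.2% for Hoxa. Hoxb4, which expands blood stem cells when overexpressed, made up 30.0% of all Hox counts. It was also the highest per exon length, with a mean over the 6 spleens of 2.61 RPKM (CPM divided by exon length in kilobases), followed by Hoxa5 with 1.52 RPKM and Hoxb7 with 1.08 RPKM. Every other member was at 0.601 RPKM or lower by that mean, the next being Hoxa2.

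Of the 30 members, 6 had a mean over the 6 spleens of at least 1 CPM (Hoxa2, Hoxa3, Hoxa5, Hoxa7, Hoxb4 and Hoxb7) and 7 were between 0.5 and 1 CPM (Hoxa4, Hoxa9, Hoxb3, Hoxb5, Hoxb6, Hoxb8 and Hoxb9). The remaining 17 were under 0.5 CPM. A count in every library was found for 15 members, 3 had counts in SB spleens alone (Hoxa11, Hoxb1 and Hoxd10, with 1 or 2 counts each) and 3 in control spleens alone (Hoxb13, Hoxc8 and Hoxd3, with at most 5 counts). The other low members included Hoxa6, with 1, 1 and 7 counts in SB animals 1 to 3 and 2, 6 and 3 counts in controls, and Hoxd9, with 3, 0 and 19 counts in SB animals and 2, 1 and 3 counts in controls. Hoxc5, Hoxc6, Hoxc9 and Hoxd4 had at most 4 counts in any animal. Hoxd3 and Hoxd4 share exon bases with each other and with Gm28230, so their few counts are also uncertain. At 1 to 5 counts neither presence nor absence in a group can be read from these libraries.

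**Figure D1:**
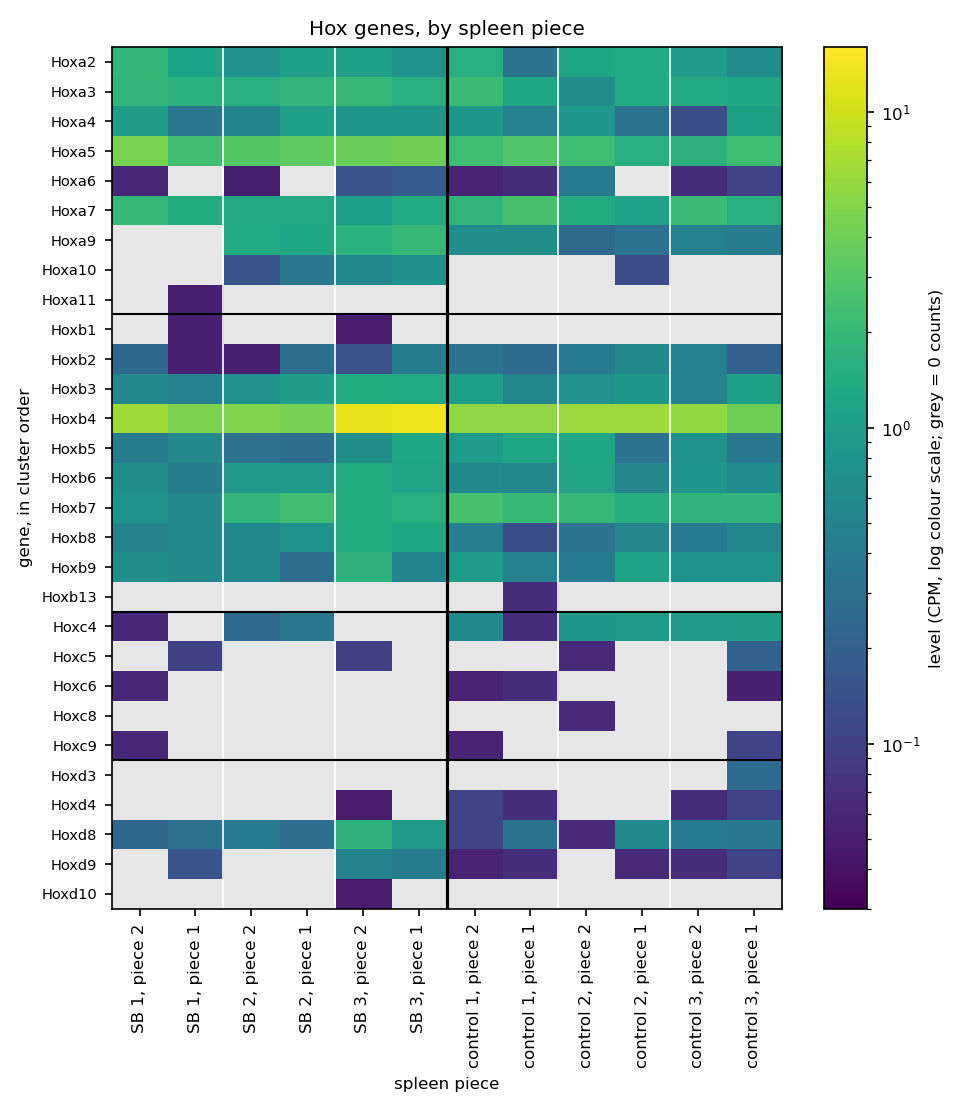
Level of 29 Hox genes (rows, in cluster order) in the 12 spleen pieces (columns, SB left of the black line and control right of it), in CPM on a log colour scale, with grey for 0 counts. Hoxb4 is the brightest row and brightest in SB animal 3, Hoxa9 and Hoxa10 are grey in both pieces of SB animal 1, and most of the Hoxc and Hoxd rows are grey or dark.

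Summed per cluster, the Hoxb level was 9.06, 9.97 and 21.5 CPM in SB animals 1 to 3, against 11.7, 11.9 and 10.1 CPM in control animals 1 to 3. SB animal 3 was high and the other two lay under the controls, and the SB mean of 13.5 ± 6.95 CPM carried a far larger spread than the control mean of 11.2 ± 0.98 CPM (SD, n = 3 each). The Hoxa level was 9.43, 9.82 and 12.04 CPM in SB animals, against 9.12, 6.92 and 7.28 CPM in control animals. All SB animals lay above all controls there, but the closest pair differed by less than the spread within either group. The Hoxc level was 0.142, 0.303 and 0.0485 CPM in SB animals, against 0.451, 0.942 and 1.16 CPM in controls. Most of it was Hoxc4 in controls and in SB animal 2, but Hoxc4 gave 1 of 5 Hoxc counts in SB animal 1 and 0 of 2 in SB animal 3. The Hoxd level was 0.369, 0.364 and 1.82 CPM in SB animals, against 0.361, 0.357 and 0.714 CPM in controls, most of it Hoxd8. These sums were not tested, being totals over members. Without SB animal 3 the log2 ratio of SB over control was -0.24 for Hoxb and -0.38 for Hoxd, against 0.27 and 0.83 with it.

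**Figure D2:**
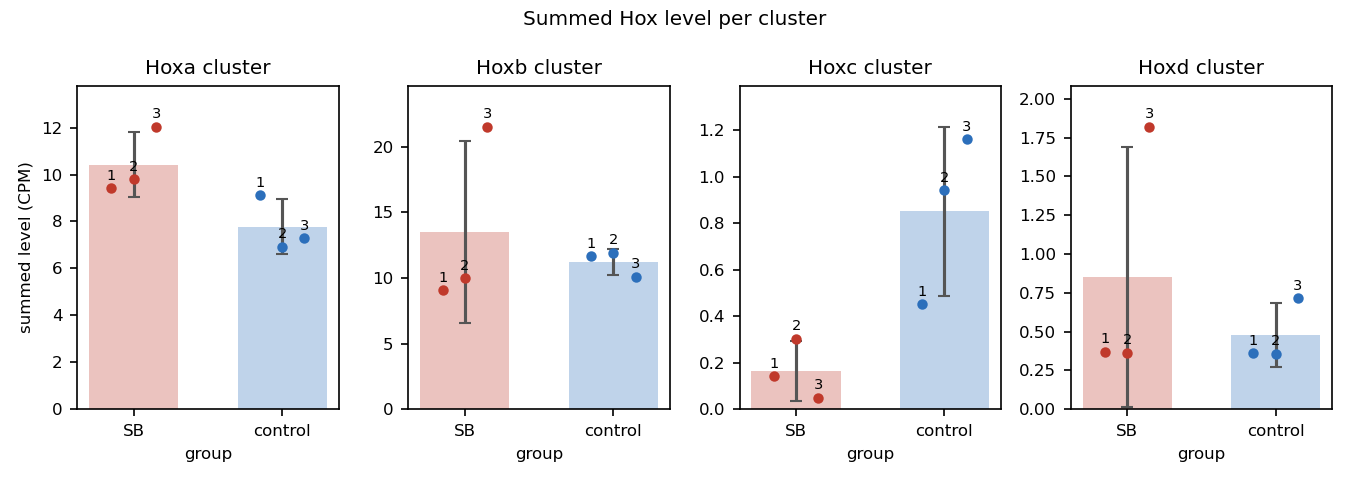
Summed level of each Hox cluster in CPM (vertical axis, a separate scale per panel) by group, with bars at the mean, error bars of 1 SD and 1 numbered point per animal (n = 3 each). SB animal 3 stands highest of all 6 animals in the Hoxa, Hoxb and Hoxd panels and lowest in the Hoxc panel.

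By paralogue group the largest level was that of group 4, with 6.19, 5.73 and 14.4 CPM in SB animals and 6.68, 7.60 and 6.45 CPM in controls, most of it Hoxb4. Group 5 had 4.18 ± 0.82 CPM in SB and 2.99 ± 0.53 CPM in controls, and group 7 had 2.83 ± 0.51 CPM in SB and 3.67 ± 0.74 CPM in controls, so that group 5 came next in SB and group 7 in controls. Group 3 had 2.67 ± 0.50 CPM in SB and 2.20 ± 0.39 CPM in controls (SD, n = 3 each). Group 9 stood at 0.739, 1.79 and 3.42 CPM in SB animals, against 1.47, 1.07 and 1.34 CPM in controls, and group 8 at 0.824, 1.00 and 2.67 CPM in SB animals, against 0.511, 0.780 and 0.862 CPM in controls. Group 2 stood at 1.65, 1.03 and 1.21 CPM in SB animals, against 1.29, 1.82 and 1.10 CPM in controls, and group 6 at 0.597, 0.909 and 1.48 CPM in SB animals, against 0.692, 1.04 and 0.833 CPM in controls. Group 10 reached 0.655 CPM in SB animal 3 and 0.065 CPM in control animal 2, while groups 11 and 13 held 1 count each and group 12 had no gene with a row. The posterior genes of groups 9 to 13 together stood at 0.767, 2.03 and 4.08 CPM in SB animals, against 1.504, 1.14 and 1.34 CPM in controls. SB animal 1 was below and SB animals 2 and 3 above every control in that sum.

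The comparison of SB with control animals asked how spleens of transposon mice differ from wild-type spleens. No Hox gene passed the test. Of the 17 members with enough counts to be tested, 0 were called by the edgeR quasi-likelihood test with Benjamini-Hochberg adjusted p under 0.05 over 17328 genes, in which 18.3% of all genes tested were called. 1 member, Hoxc4, was under 0.05 before adjustment, and DESeq2 called 0, with 2 under 0.05 before adjustment. The median log2 change was 0.25 over the 17 members and 0.11 over all genes tested, 11 members being above 0 and 6 below. No member had all SB libraries above, or all below, all control libraries, whereas 29.6% of the genes tested did.

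Hoxa5, a regulator of blood progenitor fate and of endothelial quiescence, averaged 3.54 ± 0.45 CPM in SB animals and 2.16 ± 0.35 CPM in controls (SD, n = 3 each). Its libraries ran from 2.35 to 4.53 CPM in SB and from 1.58 to 2.90 CPM in controls, so the pieces overlapped although all 3 SB animals stood above all controls. The change was log2 0.71 (SE 0.30), with an edgeR adjusted p of 0.152, which ranged from 0.053 to 0.421 over 14 alternative settings. Hoxb8, a gene that blocks myeloid maturation when it is forced on, averaged 0.845 ± 0.448 CPM in SB animals and 0.400 ± 0.090 CPM in controls, log2 1.08 (SE 0.48, edgeR adjusted p = 0.165). All 3 SB animals lay above the controls for Hoxb8 too, animal 3 by far the most. The share of all genes with all SB animals on the same side of all controls was not determined. Such an order is therefore only a description, here and for Hoxc4 and Hoxb2 below.

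Hoxc4, which in B cells promotes antibody class switching, was the member of lowest log2 change, -2.75 (SE 1.07, edgeR adjusted p = 0.127). It had 1, 10 and 0 counts in SB animals 1 to 3, against 12, 27 and 32 counts in controls 1 to 3. In CPM that was 0.0284, 0.303 and 0 in the SB animals and 0.361, 0.877 and 0.951 in the controls, and every SB animal lay below every control. Without SB animal 2 the change was log2 -5.45 with an edgeR adjusted p of 0.011, in a fit that called 6409 of 17949 genes. The summed level of 8 B cell markers was 54.2 to 143 CPM in SB libraries and 6909 to 9038 CPM in control libraries. All 8 were called lower, beside 18.3% of all genes called in either direction. The part of this B cell difference in the Hoxc4 result was not tested. In tissue RNA, fewer cells of a type and less RNA per cell cannot be told apart.

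Hoxa3, which patterns the pharyngeal arches, averaged 1.75 ± 0.08 CPM in SB and 1.35 ± 0.37 CPM in controls, log2 0.37 (SE 0.33). Hoxa4 averaged 0.753 ± 0.098 CPM in SB and 0.634 ± 0.043 CPM in controls, log2 0.25 (SE 0.30), and Hoxa2, a hindbrain and arch gene, 1.10 ± 0.35 CPM in SB and 1.03 ± 0.28 CPM in controls, log2 0.09 (SE 0.39). Hoxa7 averaged 1.43 ± 0.25 CPM in SB and 1.74 ± 0.44 CPM in controls, log2 -0.29 (SE 0.35). Each of these groups overlapped.

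Within the Hoxb cluster, Hoxb6 averaged 0.910 ± 0.386 CPM in SB and 0.710 ± 0.137 CPM in controls, log2 0.36 (SE 0.43). Hoxb5, a marker of long-term stem cells in mouse bone marrow, averaged 0.603 ± 0.355 CPM in SB and 0.789 ± 0.259 CPM in controls, log2 -0.38 (SE 0.53). Hoxb9 averaged 0.732 ± 0.344 CPM in SB and 0.737 ± 0.014 CPM in controls (SD, n = 3 each). The SB values of Hoxb5, Hoxb6 and Hoxb9 spread wider than the control values and enclosed their means. The lower-level hindbrain gene Hoxb2 averaged 0.195 ± 0.084 CPM in SB and 0.372 ± 0.101 CPM in controls, log2 -0.90 (SE 0.44). All 3 SB animals lay below the 3 controls, and it did not pass the test (edgeR adjusted p = 0.199).

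**Figure D3:**
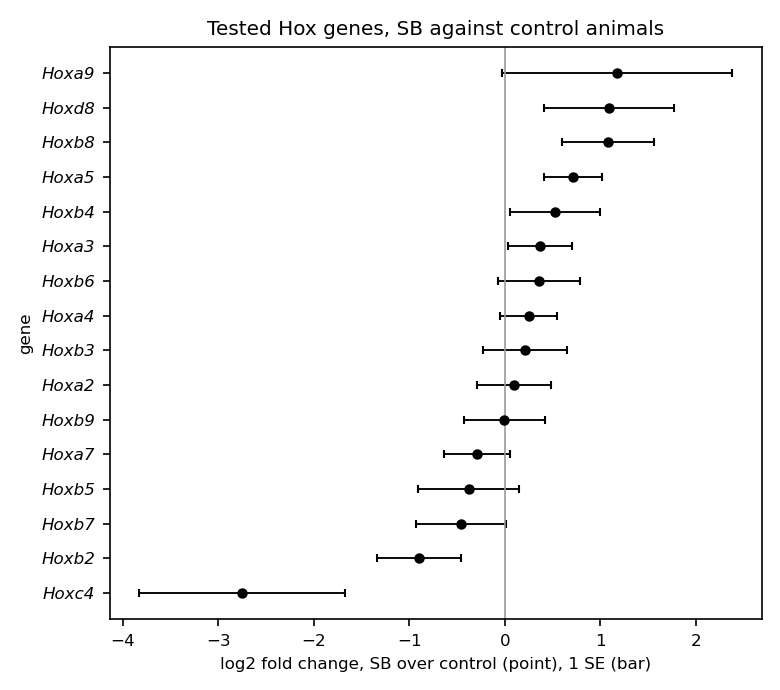
Log2 fold change of SB over control animals (horizontal axis) for 16 of the tested Hox genes (vertical axis), as points with bars of 1 SE from the edgeR fit (n = 3 animals each). Values run from -2.75 for Hoxc4 to 1.18 for Hoxa9, and the bars are widest for Hoxa9 and Hoxc4.

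The SB animals differed from each other in their Hox RNA. An F test over the 12 libraries, with both pieces of a spleen as its replicates, called 7 of 15 tested members as differing among the 3 SB animals: Hoxa9, Hoxb3, Hoxb4, Hoxb7, Hoxb8, Hoxc4 and Hoxd8. It called 70.8% of all 17758 genes tested there, so a difference among these animals was the usual case and not particular to Hox genes. Among the control animals it called 0 of 15 members, with 0 under 0.05 before adjustment, and 0.557% of all genes. These p-values measure the spread between pieces of 1 spleen and compare these spleens only. SB animal 3 was the highest of the SB animals for 13 of the 17 members tested against controls. The share of all genes highest in that animal was not determined, so whether this count is particular to Hox genes was not tested. It was also the only SB animal with Xist as low as in the controls.

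Hoxa9, a stem and progenitor cell gene that drives myeloid leukaemia together with Meis1, had 0 counts in both pieces of SB animal 1. In pieces 2 and 1 it stood at 1.39 and 1.24 CPM in SB animal 2 and at 1.67 and 1.96 CPM in SB animal 3. Control libraries ran from 0.262 to 0.675 CPM with a median of 0.453 CPM. SB animal 1 was thus below, and both other SB animals above, every control library, on 44 and 76 counts in SB animals 2 and 3 and 22, 9 and 15 counts in controls 1 to 3. Taking 3 counts over both pieces of SB animal 1 as the detection floor (0.085 CPM), it was at least 15.6-fold lower there than in SB animal 2, at least 21.6-fold lower than in SB animal 3 and at least 5.48-fold lower than the control mean. The edgeR adjusted p among SB animals was 2.0e-05, and 0.215 between SB animals 2 and 3 alone. The SB animals lay on both sides of the controls, and the fit against controls gave log2 1.18 with an SE of 1.21 (adjusted p = 0.524). Without SB animal 1 it gave log2 1.76 with an edgeR adjusted p of 0.044, in a fit that called 4362 of 17873 genes.

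Hoxa10, the neighbour of Hoxa9 and a regulator of myeloid and megakaryocyte progenitors, had too few counts to be tested. It had 0, 8 and 26 counts in SB animals 1 to 3, against 0, 2 and 0 counts in controls 1 to 3. In CPM that was 0.242 in SB animal 2 (95% Poisson interval 0.105 to 0.478) and 0.631 in SB animal 3 (0.412 to 0.925), with the highest control at 0.065 (0.008 to 0.235). Its order over the SB animals was that of Hoxa9. When no filter on low counts was used, Hoxa10 and Hoxd9 were among 8 members called among SB animals, and Hoxb3 was not. Without a filter 30 members were tested, and 12847 of all 32121 genes were called.

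Hoxb4 stood at 12.9 and 13.7 CPM in pieces 2 and 1 of SB animal 3. The same pieces held 6.51 and 4.66 CPM in SB animal 1 and 4.85 and 4.39 CPM in SB animal 2, and controls ran from 4.02 to 6.23 CPM with a median of 5.70 CPM. Both pieces of SB animal 3 were above all other libraries, and SB animals 1 and 2 fell among the controls or just past them. The edgeR adjusted p among SB animals was 6.5e-05, and it was 0.447 between SB animals 1 and 2 alone. Hoxb4 made up 38.1% of the Hox counts of SB animal 3. Against controls it had log2 0.52 (SE 0.47, edgeR adjusted p = 0.465), and log2 -0.11 without SB animal 3.

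Hoxb8, Hoxb3 and Hoxd8 were highest in the same animal. Hoxb8 had 1.43 and 1.26 CPM in pieces 2 and 1 of SB animal 3, while the other SB pieces held 0.496 to 0.732 CPM and controls at most 0.536 CPM (edgeR adjusted p among SB animals 0.022). Hoxd8, an axial patterning gene, had 1.72 and 0.885 CPM in the pieces of SB animal 3, against 0.248 to 0.412 CPM in the other SB pieces and 0.066 to 0.592 CPM in controls (edgeR adjusted p 0.0096). Hoxb3, a stem cell gene, had 1.43 and 1.35 CPM there, against 0.471 to 1.03 CPM in the other SB pieces and 0.477 to 1.07 CPM in controls (edgeR adjusted p 0.036). In each case both pieces of SB animal 3 lay above the 10 other libraries. Hoxb3 was not called once SB animal 1 (edgeR adjusted p 0.184) or SB animal 3 (0.280) was left out. Hoxb8 and Hoxd8 stayed under 0.05 without SB animal 1 and without SB animal 2. Without SB animal 3 they had too few counts to be tested. How far their calls rest on that animal was therefore not tested, and they cannot be compared with Hoxb3 in this. The Hoxb3 value is uncertain, because 52.9% of its exon bases overlap the antisense gene Hoxb3os and the libraries carry no strand. The same holds to a lesser degree for Hoxb2 (27.3%, Hoxb3os) and Hoxa7 (20.4%, Hoxaas3).

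Hoxb7 had another order. It stood at 0.744 and 0.575 CPM in pieces 2 and 1 of SB animal 1, at 1.80 and 2.34 CPM in SB animal 2 and at 1.43 and 1.58 CPM in SB animal 3, while controls ran from 1.51 to 2.58 CPM with a median of 1.87 CPM. Both pieces of SB animal 1 were below all other libraries (edgeR adjusted p among SB animals 0.0049, and 0.247 between SB animals 2 and 3 alone). Against controls Hoxb7 had log2 -0.46 (SE 0.47). Hoxc4 also differed among SB animals (edgeR adjusted p 0.026), its counts lying mostly in SB animal 2, and the adjusted p was 0.486 without SB animal 2 and 0.069 without SB animal 3.

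**Figure D4:**
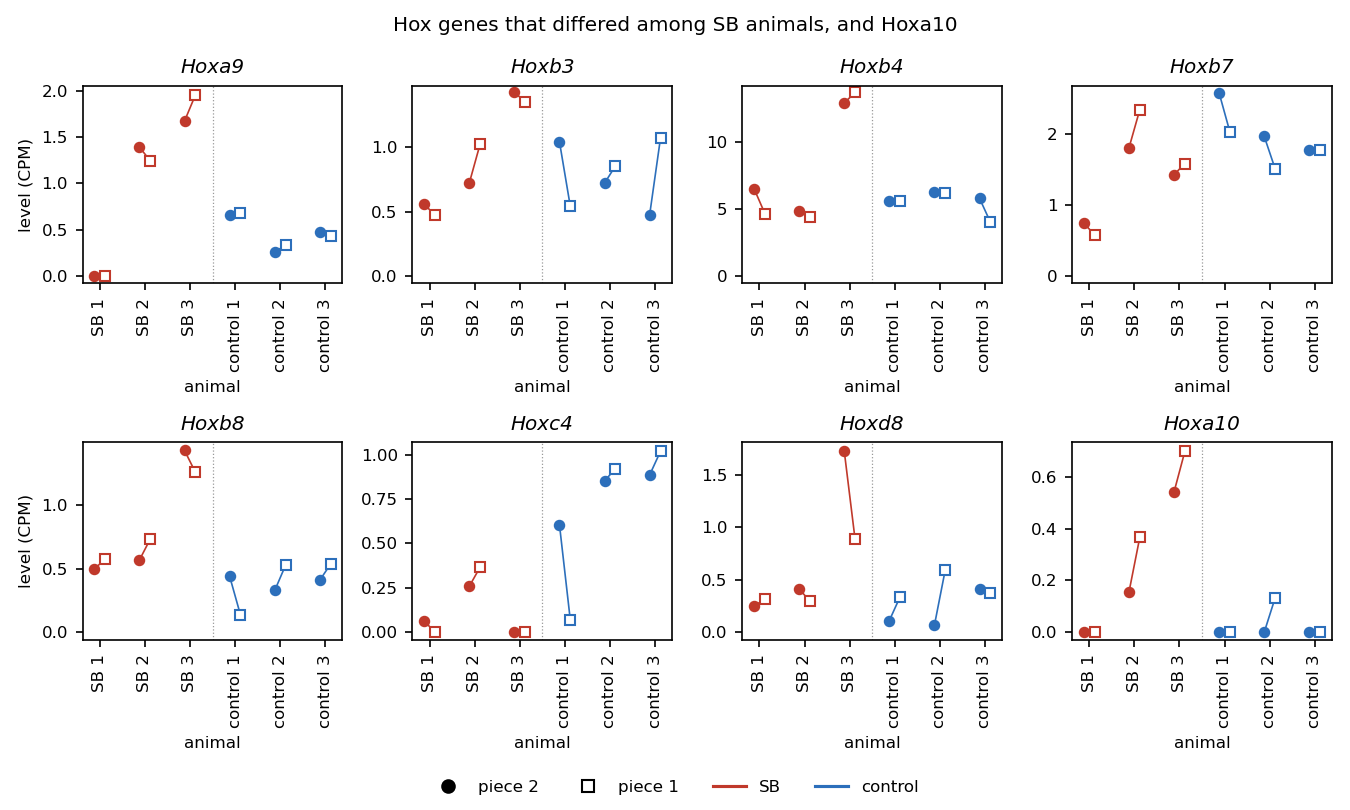
Level in CPM (vertical axis, a separate linear scale per gene) in piece 2 (filled circles) and piece 1 (open squares) of each animal, SB in red and control in blue, for the 7 Hox genes called among SB animals and for Hoxa10. Hoxb3, Hoxb4, Hoxb8 and Hoxd8 are highest in SB animal 3, Hoxa9 and Hoxa10 are at 0 in SB animal 1, and lines join the pieces of 1 spleen.

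No Hox gene was called for piece 2 against piece 1 averaged over spleens. The labels give no position of a piece in the spleen, so differences of opposite sign in different spleens cancel in this average. Whether the pieces of a single spleen differ was not tested. With the animal as a block, 0 of 12 tested members were called for piece 2 against piece 1 over all animals, where 3.05% of 15523 genes were called, and 0 were under 0.05 before adjustment. Within SB spleens 0 of 12 were called (0.00644% of all genes) and 1, Hoxb9, was under 0.05 before adjustment. Within control spleens 0 of 12 were called (9.75% of all genes), and 0 of 12 had a piece difference that itself differed between genotypes (1.37% of all genes). The median log2 difference over the 12 members was 0.08 over all animals, against 0.01 over all genes.

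Summed over all Hox genes, pieces 2 and 1 held 22.6 and 15.95 CPM in SB animal 1, 19.6 and 21.6 CPM in SB animal 2 and 35.7 and 34.3 CPM in SB animal 3. In controls 1 to 3 they held 23.1 and 19.98, 20.8 and 19.9, and 19.8 and 19.2 CPM. The widest gap was that of SB animal 1, at log2 0.50, where 10 of the 12 tested members were higher in piece 2. In SB animals 2 and 3 that number was 5 and 5, and in controls 1 to 3 it was 7, 7 and 8. The share over all genes was not determined. The Hoxb sum in SB animal 3 was 21.2 CPM in both pieces, and the Hoxa sum there was 12.02 CPM in piece 2 and 11.7 CPM in piece 1. In SB animal 1 the Hoxa sum was 11.8 CPM in piece 2 and 7.43 CPM in piece 1, and in SB animal 2 it was 9.18 and 10.7 CPM. The Hoxc and Hoxd sums rested on 0 to 47 counts a library and moved widely between pieces of both genotypes. At these counts small differences between pieces were not detectable.

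Among the partners that bind DNA with Hox proteins, 9 genes of the Pbx, Meis and Pknox families were tested and 1, Pbx3, rose, against 18.3% of all genes called in either direction. Pbx3 had 58.2, 43.3 and 37.3 CPM in SB animals 1 to 3, against 15.9, 14.5 and 14.2 CPM in controls, log2 1.64 (SE 0.22, edgeR adjusted p = 0.0083), with no overlap. Of the 9, 7 differed among SB animals and 0 among controls, near the shares of all genes (70.8% and 0.557%). Meis1, the partner of Hoxa9, had 349 CPM in SB animal 1, the animal with 0 Hoxa9 counts, but 13.4 and 3.32 CPM in SB animals 2 and 3, against 10.9 to 13.3 CPM in controls (edgeR adjusted p among SB animals 1.6e-11). Meis3 had 2.56, 19.8 and 17.8 CPM in SB animals, against 19.0 to 28.8 CPM in controls.

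Of 14 members of the MLL and Dot1l complexes, which maintain Hox transcription, 0 rose and 1 fell, beside 18.3% of all genes called in either direction. Kmt2a had 105, 116 and 114 CPM in SB animals 1 to 3, against 258, 241 and 281 CPM in controls, log2 -1.22 (SE 0.14, edgeR adjusted p = 0.0058). Among 18 members of the Polycomb complexes, which silence Hox genes, 1 rose and 3 fell, a share near the 18.3% of all genes called. Ezh2, the histone methyltransferase of Polycomb complex 2, averaged 135 CPM in SB and 58.4 CPM in controls (log2 1.20, SE 0.16, edgeR adjusted p = 0.0079), while its relative Ezh1 fell (log2 -0.61, SE 0.16, adjusted p = 0.045). The chromobox subunits of Polycomb complex 1 Cbx7 (log2 -2.12, SE 0.38, edgeR adjusted p = 0.018) and Cbx8 (log2 -1.11, SE 0.21, adjusted p = 0.021) fell too. Bmi1, another subunit of complex 1, had 1508 CPM in SB animal 3, the animal with the highest Hoxb4, but 77.5 and 59.1 CPM in SB animals 1 and 2, against 77.0 to 89.2 CPM in controls. Bmi1 differed among SB animals (edgeR adjusted p 6.2e-10) and was not called against controls (adjusted p = 0.185). The median log2 change was -0.20 for the partners, 0.15 for the MLL list and -0.09 for the Polycomb list, beside 0.11 for all genes. Over 14 alternative settings Kmt2a stayed under 0.05 in all (highest edgeR, DESeq2 or limma adjusted p 0.045). Pbx3 and Ezh2 lost their call without control animal 2 or 3 (highest adjusted p 0.061 and 0.059), Cbx7 and Cbx8 when any 1 control was left out (0.080 and 0.127), and Ezh1 under 7 settings (0.181), with the direction kept throughout.

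**Figure D5:**
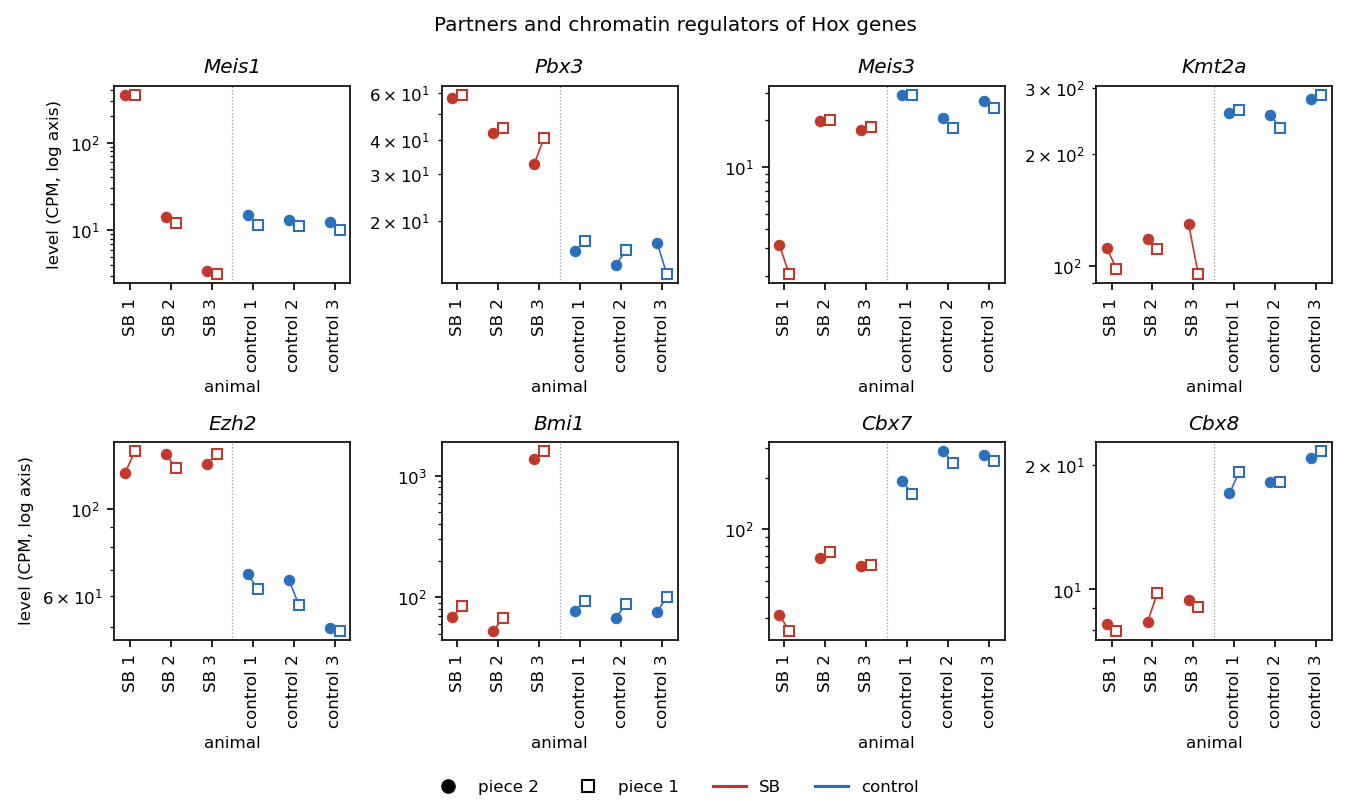
Level in CPM (vertical axis, log scale, separate per gene) of partners and chromatin regulators of Hox genes in piece 2 (filled circles) and piece 1 (open squares) of each animal, SB in red and control in blue. Meis1 stands highest in SB animal 1 and Bmi1 in SB animal 3, while Pbx3, Kmt2a, Ezh2, Cbx7 and Cbx8 separate all SB from all control pieces.

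Of 16 listed non-coding RNAs of the clusters 9 had a row and 4 were tested (Hotairm1, Hoxaas2, Hoxaas3 and Hoxb3os). Against controls 0 were called, beside 18.3% of all genes, and among SB animals 0 were called, beside 70.8% of all genes. Hoxb3os averaged 0.242 CPM in SB and 0.518 CPM in controls, log2 -1.09 (SE 0.44, edgeR adjusted p = 0.137). Mir10a, a microRNA gene between Hoxb4 and Hoxb5, had 1, 4 and 24 counts in SB animals 1 to 3, against 6, 1 and 0 counts in controls, and was not tested. Its highest value was in the animal with the highest Hoxb4, and reads of poly-A libraries there come from longer transcripts, not from the mature microRNA. Mir10b of the Hoxd cluster had 0 counts in SB spleens and 1 in controls. Both give the same seed (bases 2 to 8, in capitals), shown from RefSeq.
miR-10a-5p: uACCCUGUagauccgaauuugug
miR-10b-5p: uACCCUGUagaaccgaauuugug
Of the caudal, Evx and ParaHox genes, relatives that regulate or flank Hox clusters, 4 of 8 had a row and 0 were tested, their sum reaching at most 0.186 CPM in any library.

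Of 10 other homeobox genes of spleen development 7 were tested, and 0 rose and 2 fell, beside the same 18.3%. Nkx2-3, needed for the spleen vessels and white pulp, averaged 7.39 CPM in SB and 16.7 CPM in controls, log2 -1.18 (SE 0.24, edgeR adjusted p = 0.024). Hhex, a blood and endothelial regulator, averaged 64.0 CPM in SB and 149 CPM in controls, log2 -1.22 (SE 0.29, adjusted p = 0.038). Neither was called when any 1 control was left out (highest edgeR adjusted p 0.127 for Nkx2-3 and 0.142 for Hhex), and Hhex was also not called in piece 2 alone or without SB animal 3. Tlx1, which the spleen anlage requires and which marks the labelled organ, was present in every animal, at 9.85 to 18.5 CPM in SB and 19.9 to 25.5 CPM in controls.

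Most lists of markers of other cell types had summed levels that did not overlap between SB and control libraries, while the erythroid, endothelial, mesothelium and pancreas sums overlapped. Of all genes tested, 29.6% had SB and control libraries that did not overlap. The counts of called genes below stand beside 18.3% of all genes called in either direction. The summed level of 20 stem and progenitor genes was 3478, 1798 and 1954 CPM in SB animals 1 to 3, against 1249 to 1288 CPM in controls, with 3 called higher (Gata2, Tal1 and Lmo2) and 1 lower (Mecom). The primary granule genes, of which 4 of 5 tested were called higher, summed to 286 to 681 CPM in SB libraries and 4.07 to 65.3 CPM in controls; the other listed gene, Azu2, was not analysed here. The 10 megakaryocyte genes summed to 3719, 1553 and 5485 CPM in SB animals, against 380 to 892 CPM in controls. The 8 T cell markers summed to 24.7 to 112 CPM in SB libraries and 850 to 1111 CPM in controls, and the 14 stroma markers to 169 to 664 CPM in SB libraries and 887 to 1254 CPM in controls. The 10 endothelial genes summed to 632 to 1121 CPM in SB libraries and 563 to 759 CPM in controls, with 3 called higher and 1 lower. Erythroid genes (4 of 15 called higher) summed to 3672 to 46390 CPM in SB libraries and 14290 to 52807 CPM in controls. That list includes the globin genes Hbb-bs and Hba-a1, and its median log2 change was 2.08, beside 0.11 for all genes. Globin took 0.085 to 3.83% of counts in SB libraries and 1.78 to 6.20% in controls. Mast cell and basophil genes (1 of 7 called lower) summed to 17.9 to 273 CPM in SB libraries and 6.81 to 16.1 CPM in controls. Capsule smooth muscle genes (2 of 6 called lower) summed to 20.6 to 95.9 CPM in SB libraries and 204 to 337 CPM in controls. Mesothelium genes (0 of 4 called) stood at 6.76 to 14.3 CPM in SB libraries and 7.43 to 23.0 CPM in controls, adipose genes (1 of 2 called higher) at 34.8 to 160 CPM in SB libraries and 6.84 to 20.4 CPM in controls, and pancreas genes (0 of 1 called) at 6.71 to 65.9 CPM in SB libraries and 9.43 to 26.6 CPM in controls. The part of these differences in the Hox values was not tested.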

How the data were processed

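The deposited values are whole-number read counts per Ensembl gene, 1 column per spleen piece, which the authors made from poly-A selected libraries without strand, as the labels' protocols state. The submitters' processing notes name STAR 2.5.3a, limma and the builds GRCm38 and mm10, and the counting mode is not given in the sources used here. Of 32121 genes 32026 were matched to GENCODE release 21 (GRCm38) for symbols. Without strand, reads where a gene and its antisense neighbour overlap cannot be assigned to 1 of them, and how they were counted is not known.

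The replicate was the animal, and pieces were paired by the animal in their titles. Sections A and B of controls were taken as pieces 1 and 2. The genotype fit used summed counts of both pieces in edgeR 4.0.16 (R 4.3.3; TMM, filterByExpr, robust quasi-likelihood test, two-sided). The piece fits used 12 libraries with the animal as a block, and an F test compared animals. P-values were adjusted by Benjamini-Hochberg over all genes tested at 0.05, and standard errors came from the F statistic. DESeq2 1.42.0 and limma 3.58.1 were alternatives, among those listed in the closing section. Scripts were tested on simulated data. Intervals and the floor of 3 counts cover counting error only. Where nothing says that pieces are separate extractions, p-values may measure technical spread. Members with a mean of at least 0.5 CPM, or called, are described singly, and from each list its called and most abundant members. Some genes that enter the counts and sums are not reported here. The members, gene lists and tests were chosen with earlier results of these data known.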

Additional observations from a re-analysis of the deposited data

Results flagged for a closer look

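Among 19 Hox genes with at least 20 counts, examined in SB and in control libraries (38 groups of 6), 5 groups held a library far from the other five, where chance gives about 1 in 20 for independent samples. These libraries are 2 pieces from each of 3 spleens and are not independent, so that rate need not hold. The highest SB libraries were piece 2 of SB animal 3 for Hoxb9 (1.72 CPM), and piece 2 of SB animal 1 for Hoxa2 (1.92 CPM). The highest control libraries were piece 2 of control animal 2 for Hoxa6 (0.393 CPM) and piece 1 of the same animal for Hoxa10 (0.132 CPM, from 2 counts). The lowest control library was piece 1 of control animal 3 for Hoxb4 (4.02 CPM).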

How the results depend on the processing

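Against controls, 0 members were called under RLE, no filter, a mean of at least 1 CPM, DESeq2, limma voom, each piece alone and library sizes without globin and immunoglobulin. Leaving out 1 animal gave 0 to 1 (Hoxa9 without SB animal 1 at log2 1.76, Hoxc4 without SB animal 2 at log2 -5.45), while calls over all genes ran from 554 to 6409 over these settings, against 3178. The log2 change reversed for uncalled members: leave-one-out ranges were -0.11 to 0.79 for Hoxb4, -0.19 to 0.31 for Hoxa2, -0.23 to 0.50 for Hoxb3, -0.0013 to 0.63 for Hoxb6 and -0.45 to 0.24 for Hoxb9. Hoxa2 was at -0.016 and Hoxb9 at 0.53 in piece 2 alone, Hoxb5 at 0.20 in piece 1 alone and Hoxa9 at -0.17 with voom; the cause was not tested. Among SB animals leaving out 1 gave 2 to 7 calls, with fewer animals compared, and 8 of 30 without a filter, in fits that called 8109 to 9697 and 12847 of all genes. For pieces, 0 members were called with and without the replicate block, which pairs pieces by animal; without it edgeR called 0 of 15523 genes in each piece comparison (197 to 576 under 0.05 before adjustment), so the 0 says nothing of Hox genes. No paired analysis across genotypes was possible because the labels tie SB and control animals in no way. Cluster ratios, whose leave-one-out and RLE settings were chosen after seeing the data, ran from 0.31 to 0.55 (Hoxa), -0.24 to 0.49 (Hoxb), -3.16 to -1.94 (Hoxc) and -0.38 to 1.25 (Hoxd), log2. At 166 counts for the median tested member over all animals, small changes were not detectable.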
